A study of Mus musculus with 28 samples.

Results

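The 36 genes described here encode the contractile, calcium handling and metabolic proteins of skeletal muscle fibers. They were chosen by name, from 5 role lists, out of 55341 gene rows, and all 36 were present in both count matrices. The RNA came from whole subcutaneous tumors of the AB1-HA line, a mouse mesothelioma line inoculated on the flank of BALB/c.AusBP mice aged 8 to 10 weeks. Treatment began when tumors measured 20 to 25 mm2 and tumors were taken on day 7. The groups were PBS as vehicle (n = 4), immune checkpoint blockade (ICB, n = 5; antibodies to CTLA-4 and PD-L1, 100 µg of each, then 2 more doses against PD-L1), 5-FU at 75 mg/kg (n = 5), cisplatin at 6 mg/kg (n = 4), 5-FU+ICB (n = 5) and cisplatin+ICB (n = 5). All groups shared the tumor line and the host strain. A single transplanted line was used, and each tumor was taken whole, so every tissue removed with it contributed RNA.

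Skeletal muscle fibers are long cells filled with repeating sarcomeres, in which myosin thick filaments pull on actin thin filaments when calcium is released from the sarcoplasmic reticulum. Fast fibers use the myosin heavy chains of Myh1, Myh2 and Myh4 and fast forms of the troponins, and slow fibers use Myh7 and slow forms. A thin sheet of skeletal muscle lies under the skin of the mouse, where subcutaneous tumors grow. Whether the RNA in these tumors came from that sheet, from other muscle or from the tumor cells cannot be told apart in bulk RNA, nor can fewer cells of a type be told apart from less RNA per cell. The genes are therefore called skeletal muscle genes.

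Promoter sequences are shown for Ckm, the reference gene of the correlations below, for Tnni1, the slow troponin I gene, and for Acta1, the most abundant member (added after its level was seen). They are 300-base windows from RefSeq (GRCm38.p6), from 250 bases before to 50 after an annotated start, printed in the direction of the gene, and for Ckm and Tnni1 the RefSeq start lies inside the GENCODE gene model. Capitals mark matches to the E-box (letters CANNTG), to the muscle element known as M-CAT (letters CATTCC), to the letters TATAAA, and to the MEF2 and CArG consensus, which are named without letters.
Ckm, chr7:19410844-19411143, plus strand: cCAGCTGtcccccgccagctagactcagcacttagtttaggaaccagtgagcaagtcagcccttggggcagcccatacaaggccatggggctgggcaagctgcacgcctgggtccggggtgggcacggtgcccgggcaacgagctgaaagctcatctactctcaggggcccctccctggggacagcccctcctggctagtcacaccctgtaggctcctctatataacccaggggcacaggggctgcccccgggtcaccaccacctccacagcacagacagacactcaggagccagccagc
Tnni1, chr1:135799171-135799470, plus strand: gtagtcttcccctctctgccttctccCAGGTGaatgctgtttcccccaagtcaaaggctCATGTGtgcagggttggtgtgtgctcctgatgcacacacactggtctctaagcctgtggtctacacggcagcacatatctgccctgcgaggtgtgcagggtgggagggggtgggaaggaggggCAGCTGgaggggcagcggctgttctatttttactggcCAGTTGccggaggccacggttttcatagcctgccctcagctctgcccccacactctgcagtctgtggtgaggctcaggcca
Acta1, chr8:123894726-123895025, minus strand: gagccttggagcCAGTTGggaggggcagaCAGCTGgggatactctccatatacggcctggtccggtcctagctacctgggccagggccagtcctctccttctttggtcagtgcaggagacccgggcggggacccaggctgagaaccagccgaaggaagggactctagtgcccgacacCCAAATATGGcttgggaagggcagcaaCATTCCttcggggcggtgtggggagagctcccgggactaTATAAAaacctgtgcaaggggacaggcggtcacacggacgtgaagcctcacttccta
Windows were found for 29 of the 36 members, and those of Neb, Tnni2, Tnnt3, Actn3, Myoz1, Tcap and Trdn were not used here. Counting matches on both strands, an E-box stood in 82.8% of the 29 member windows and in 72.3% of all 32851 windows of this length. The M-CAT letters stood in 37.9% of member windows against 14.7%, the TATAAA letters in 24.1% against 13.6%, the MEF2 consensus in 20.7% against 3.2% and the CArG consensus in 10.3% against 1.6%. The TATAAA letters can overlap the MEF2 consensus. A match is a description of letters in a window and not a site of binding.

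Skeletal muscle genes took between 0.00301% of all counts, in 5-FU+ICB replicate 2 (Wilson 95% interval 0.00283% to 0.00320%), and 0.821%, in 5-FU+ICB replicate 5 (0.818% to 0.825%). The highest share was 273 times the lowest, and both tumors had received the same treatment. In the PBS tumors the share was 0.0244%, 0.0334%, 0.0380% and 0.0436%. In the ICB tumors it was 0.00736%, 0.0695%, 0.594%, 0.00381% and 0.0132%. Replicate 3 of ICB was far above the other 4, and 3 of the 5 ICB tumors lay below every PBS tumor.

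After 5-FU the share was 0.274%, 0.00494%, 0.340%, 0.222% and 0.313%, so 4 of 5 tumors were above every PBS tumor and replicate 2 was below them. After 5-FU+ICB it was 0.185%, 0.00301%, 0.218%, 0.160% and 0.821%, with the same division of 4 tumors above and 1 below. The cisplatin tumors had 0.0912%, 0.0375%, 0.0291% and 0.0376%, close to PBS but for replicate 1. The cisplatin+ICB tumors had 0.0181%, 0.0793%, 0.195%, 0.0645% and 0.238%. In 11 of 28 tumors the share was over 0.1%, and in 4 it was under 0.01%.

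**Figure D1:**
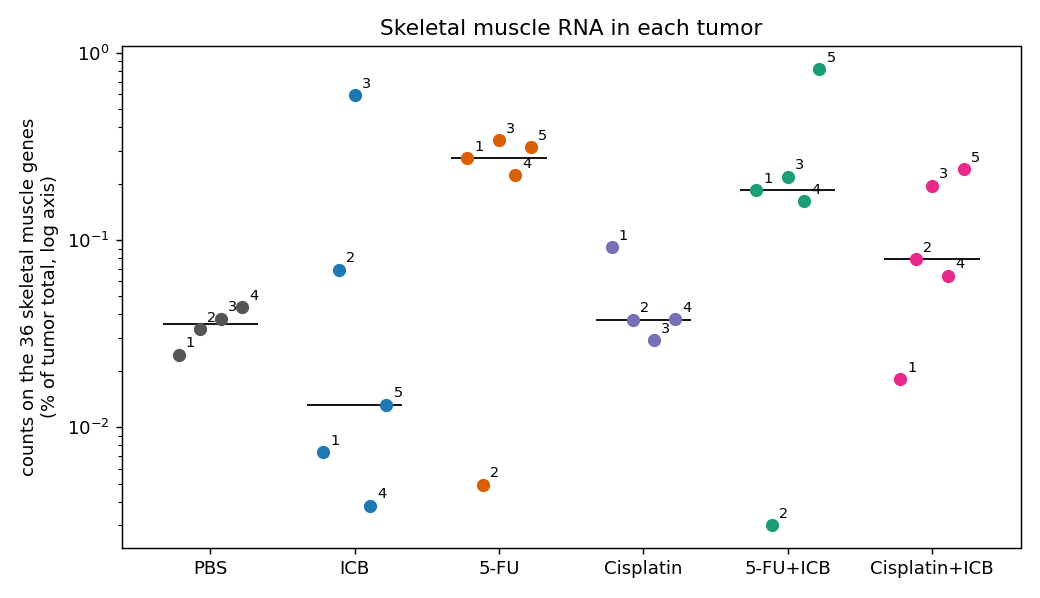
Counts on the 36 skeletal muscle genes as a percentage of each tumor's total (log axis), by treatment group. Each point is a tumor with its replicate number and each line the group's median; PBS spans 0.0244% to 0.0436%, while 5-FU+ICB spans 0.00301% to 0.821%.

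The module mean, the average log2 CPM of the 36 genes, was 2.15 ± 0.38 in PBS (SD, n = 4), 1.67 ± 2.92 in ICB (n = 5), 3.73 ± 2.40 in 5-FU (n = 5), 2.42 ± 0.57 in cisplatin (n = 4), 3.62 ± 3.06 in 5-FU+ICB (n = 5) and 3.13 ± 1.35 in cisplatin+ICB (n = 5). The SD within the ICB, 5-FU and 5-FU+ICB groups was larger than any difference between group means. Group membership accounted for 14.1% of the variance of the module mean over 28 tumors. For single members the median was 15.2%, against 34.3% over the 18521 genes kept in the joined data. Members also spread more than most genes, with a median SD of 2.38 log2 CPM against 0.61 over all kept genes, and 29 of 35 kept members were above the 95th percentile of that SD.

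Some libraries stood apart and touch these values. 5-FU+ICB replicate 5, with the most muscle RNA, had 0.390 CPM of Msln, the mesothelin gene that marks mesothelial cells, where the other 27 tumors had at least 31.4 CPM. It was also the highest of all 28 tumors in 5 other markers of the same list, Krt8 (26.1 CPM), Krt18 (21.2 CPM), Krt19 (38.1 CPM), Krt7 (8.29 CPM) and Gpm6a (5.93 CPM). It had 16.1% of counts on mitochondrial genes, against at most 6.80% elsewhere. In cisplatin+ICB replicate 1, genes whose longest annotated transcript is at least 5000 bases were low relative to genes of at most 1600 bases, by -2.41 on the log2 scale relative to the median tumor, over genes that are not members. The same measure was -1.25 in PBS replicate 2, -0.83 in cisplatin replicate 4, -0.69 in PBS replicate 1 and -0.40 in cisplatin replicate 2, and between -0.30 and 0.24 in the other tumors. Counts of called members are given without 5-FU+ICB replicate 5, PBS replicates 1 and 2 and cisplatin+ICB replicate 1 where this changes them.

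Thick filament genes together had the widest range of the 5 role lists as a ratio, from 0.000127% to 0.210% of counts. Thin filament genes reached a higher share, 0.261%. Myh4, the fast IIb myosin heavy chain (chromosome 11, 67238029 to 67260446, GRCm38), had 2.25, 7.13, 13.8 and 24.5 CPM in PBS. It had 0.691, 32.2, 785, 0 and 6.43 CPM in ICB, and 400, 0.626, 291, 251 and 355 CPM in 5-FU. The ICB values lie on both sides of PBS, and a single 5-FU tumor lies below it. Myh4 had 64.0, 21.2, 8.39 and 12.1 CPM in cisplatin, 110, 0, 144, 102 and 510 CPM in 5-FU+ICB, and 0.399, 82.5, 285, 27.7 and 243 CPM in cisplatin+ICB.

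Of the other thick filament members, Myh1, the fast IIx heavy chain, reached 570 CPM and Myh2, the fast IIa chain, 73.0 CPM, both in 5-FU+ICB replicate 5. Mylpf, the fast regulatory light chain, ranged from 0.923 to 339 CPM, and Myl1, a fast essential light chain, from 0 to 318 CPM. The myosin binding proteins C, Mybpc1, placed on the slow list, and Mybpc2, placed on the fast list, reached 141 and 151 CPM. Myh7, the slow heavy chain, had 0.0373, 0.0960, 0.105 and 0.285 CPM in PBS, 0.118, 0.376, 0.108, 0.191 and 0.227 CPM in ICB, and 0.191, 0.221, 0.170, 0.278 and 0.388 CPM in 5-FU. It had 0.516, 0.362, 0.310 and 0.113 CPM in cisplatin, 0.170, 0.213, 0.194, 0.575 and 0.273 CPM in 5-FU+ICB, and 0.0363, 0.275, 0.296, 0.401 and 0.588 CPM in cisplatin+ICB. The groups overlapped. ICB replicate 3, the highest ICB tumor in Myh4, was the lowest ICB tumor in Myh7, at 0.108 CPM, which is 3 counts. ICB replicate 1 was next at 0.118 CPM, so this order rests on very few counts. Myl2, the slow and cardiac regulatory light chain, was at or under 3 counts in 24 of 28 tumors.

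Acta1, skeletal muscle actin of the thin filament (chromosome 8, 123891769 to 123894751), was the most abundant member by mean CPM, and also per kilobase of exon (178 CPM per kb). It had 59.4, 55.1, 81.9 and 94.2 CPM in PBS and 7.86, 134, 1144, 0.0318 and 18.5 CPM in ICB. After 5-FU it had 448, 4.01, 585, 393 and 509 CPM, and after cisplatin 166, 73.7, 56.9 and 63.6 CPM. After 5-FU+ICB it had 356, 0.274, 409, 312 and 1719 CPM, and after cisplatin+ICB 11.9, 135, 286, 124 and 416 CPM. The lowest tumors of ICB, 5-FU, 5-FU+ICB and cisplatin+ICB were below PBS, and the highest were above it.

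The troponins regulate the thin filament, with a fast and a slow gene for each subunit. The fast genes Tnni2, Tnnt3 and Tnnc2 reached 230, 302 and 263 CPM. The slow genes Tnni1, Tnnt1 and Tnnc1 reached 5.52, 7.69 and 2.28 CPM. Neb, the giant ruler protein of the thin filament, ranged from 1.19 to 120 CPM.

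Among Z-disc and scaffold genes, Des, the intermediate filament desmin that smooth muscle also uses, was the most abundant. It had 28.1, 36.7, 40.8 and 46.4 CPM in PBS, 10.4, 115, 313, 4.30 and 19.6 CPM in ICB, and 169, 6.11, 357, 176 and 269 CPM in 5-FU. It had 94.3, 37.6, 33.4 and 56.2 CPM in cisplatin, 291, 4.29, 307, 232 and 681 CPM in 5-FU+ICB, and 19.0, 91.3, 148, 113 and 316 CPM in cisplatin+ICB. Des kept at least 4.29 CPM in the tumors where Myh4 was at 0. Ttn, the giant spring titin, ranged from 1.12 to 177 CPM, and Actn3, the actinin of fast fibers, from 0.318 to 129 CPM. Actn2, the other sarcomeric actinin, reached 84.9 CPM, Ldb3 53.4 CPM, and the titin cap gene Tcap and the calsarcin gene Myoz1 reached 91.0 and 63.3 CPM, all in 5-FU+ICB replicate 5.

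Atp2a1, the calcium pump of fast fibers, led the calcium genes. It had 10.4, 10.4, 11.4 and 22.7 CPM in PBS, 2.53, 36.6, 512, 0.310 and 4.03 CPM in ICB, and 261, 1.51, 309, 183 and 291 CPM in 5-FU. It had 64.8, 21.1, 16.1 and 22.5 CPM in cisplatin, 139, 0.175, 198, 114 and 762 CPM in 5-FU+ICB, and 1.39, 64.2, 186, 40.4 and 198 CPM in cisplatin+ICB. The tumors that were high or low in Acta1 were high or low here too. Ryr1, the calcium release channel, ranged from 0.700 to 118 CPM, and Pvalb, the calcium buffer parvalbumin of fast fibers, from 0 to 102 CPM. Casq1, the calcium store of fast fibers, reached 96.6 CPM, Cacna1s, the voltage sensor, 46.8 CPM, and Trdn, the anchor triadin, 33.4 CPM.

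Ckm, the muscle creatine kinase (chromosome 7, 19404776 to 19422841), led the metabolic genes. It had 9.38, 27.1, 9.48 and 20.8 CPM in PBS, 1.35, 19.6, 457, 0.622 and 3.82 CPM in ICB, and 180, 0.800, 167, 130 and 183 CPM in 5-FU. It had 44.3, 25.0, 10.2 and 26.1 CPM in cisplatin, 56.7, 0.636, 91.8, 61.2 and 527 CPM in 5-FU+ICB, and 12.2, 34.3, 118, 16.1 and 109 CPM in cisplatin+ICB. Pgam2, of glycolysis, ranged from 0.663 to 68.3 CPM. Mb, the oxygen carrier myoglobin, reached 99.8 CPM, and Pygm, muscle glycogen phosphorylase, 174 CPM. Eno3, the muscle enolase, never fell below 13.2 CPM, so it had a level of its own in tumors almost free of the other members.

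**Figure D2:**
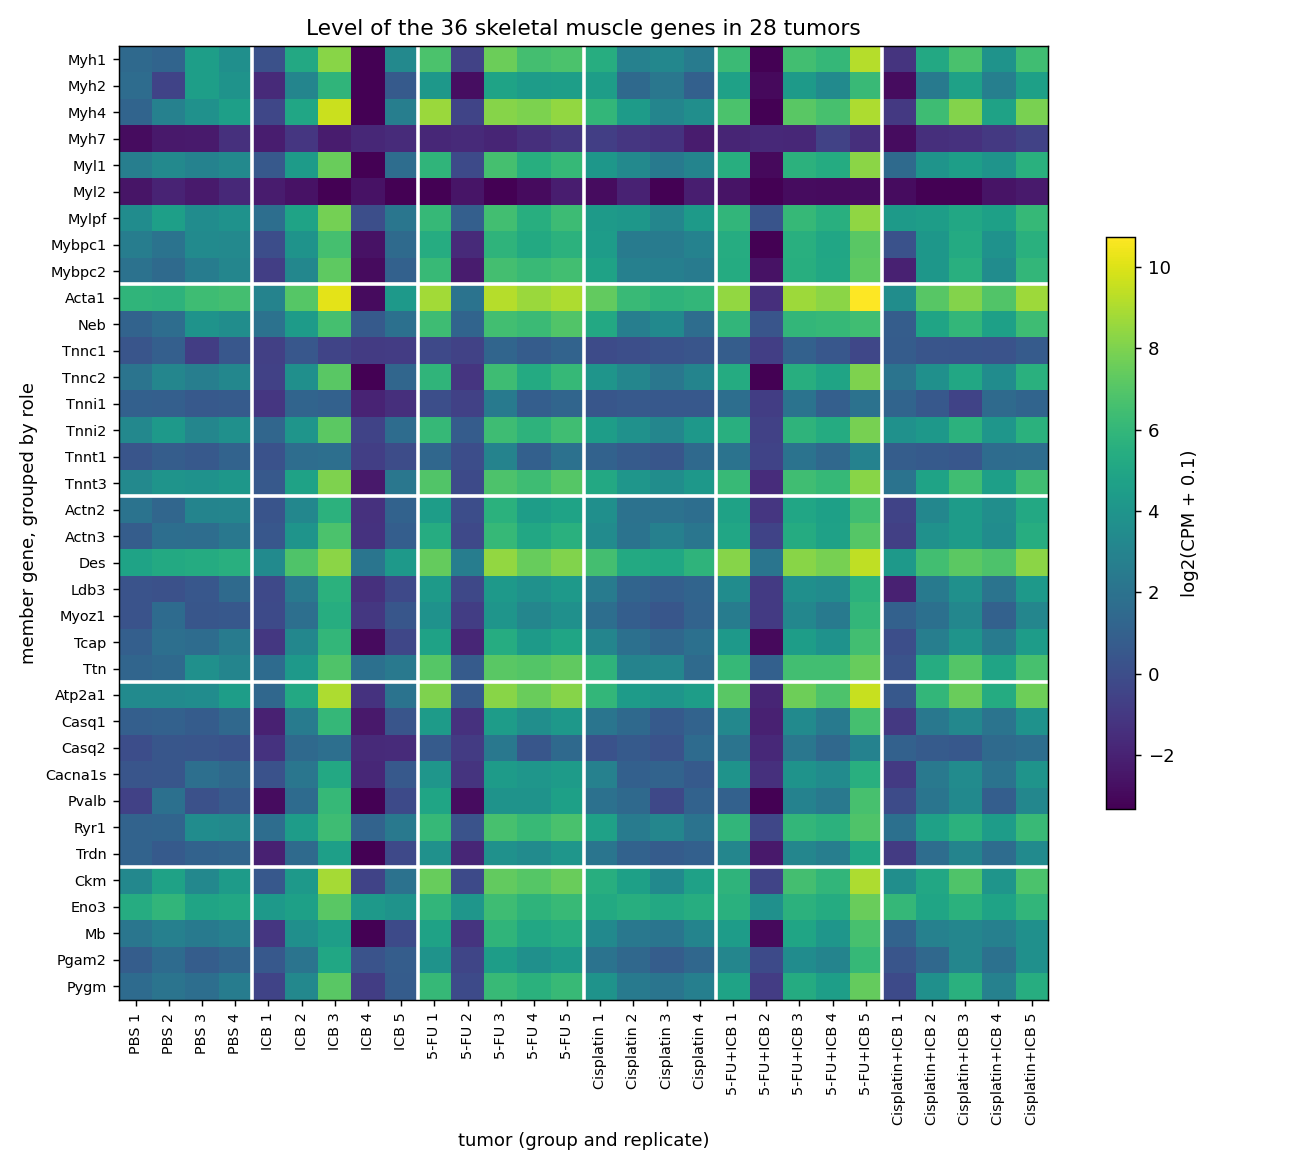
Level of each of the 36 genes (rows, grouped by role) in each of the 28 tumors (columns, grouped by treatment), as log2(CPM + 0.1). Whole columns are bright or dark together, with ICB replicate 4 and 5-FU+ICB replicate 2 darkest; Myh7 and Myl2 stay dark in every column.

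The fiber type balance, in log2 CPM not scaled to transcript length, was on the fast side in nearly every tumor. The 13 fast genes averaged 3.22 ± 1.89 log2 CPM more than the 7 slow genes (SD, n = 28 tumors). The difference ran from -0.55 in ICB replicate 4 to 6.67 in ICB replicate 3, and was below 0 in that tumor and in 5-FU+ICB replicate 2 (-0.34), where most fast genes were near the floor. Slow list genes moved less over the tumors, with a median SD of 0.96 log2 CPM against 2.44 for the 29 other members. Mybpc1 was the exception on the slow list, with an SD of 2.80. Without it, the slow list averaged between -1.80 and 0.74 log2 CPM in all 28 tumors.

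Per kilobase of exon, Myh4 held 24.4% to 77.4% of the myosin heavy chain signal in the 23 tumors with over 100 counts on the 4 heavy chain genes. Myh1 held 19.7% to 54.5%, Myh2 2.89% to 35.3% and Myh7 at most 1.02%. Myh4 had the largest of the 4 shares in 17 of these 23 tumors. The shares of Myh2 were highest in PBS replicates 1 and 3, at 34.9% and 35.3%. The difference between fast and slow lists was 2.48 ± 0.37 in PBS (n = 4), 2.55 ± 2.73 in ICB (n = 5), 4.17 ± 2.17 in 5-FU (n = 5), 2.88 ± 0.66 in cisplatin (n = 4), 3.65 ± 2.44 in 5-FU+ICB (n = 5) and 3.37 ± 1.74 in cisplatin+ICB (n = 5), and the groups overlapped. This difference moved with the amount of muscle RNA. It was -0.55 in ICB replicate 4 (module mean -1.70) and 6.67 in ICB replicate 3 (module mean 5.81). A shift of fiber type between groups was not tested.

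**Figure D3:**
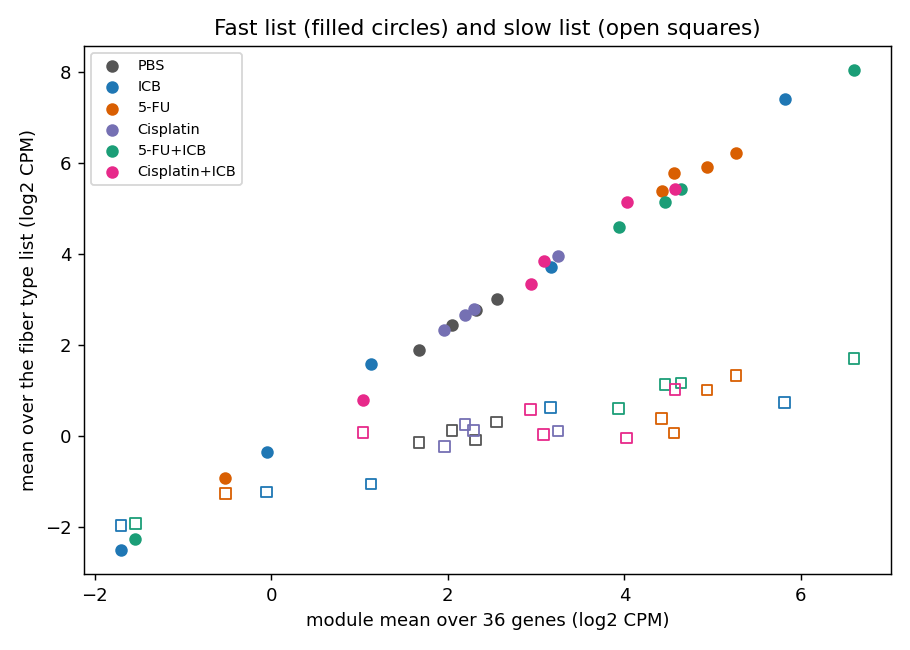
Mean log2 CPM of the 13 fast genes (filled circles) and the 7 slow genes (open squares) in each tumor, against the module mean. The fast mean rises with the module mean to 8.05. The slow mean rises less, from -1.96 in ICB replicate 4 to 1.71 in 5-FU+ICB replicate 5. Both lists are part of the module mean.

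Against PBS, few members passed the edgeR test, and their estimated folds were large in every group but cisplatin alone. After ICB, 0 of 34 tested members were called, where 37.8% of all 17916 genes tested were called. The members' median log2 fold change was 2.06, against -0.03 over all genes tested. No member had an unadjusted p under 0.05, where 9125 of all genes had. DESeq2 called 2 of 36, Actn3 and Ldb3, a Z-disc protein, and 7403 of 22183 genes. The smallest edgeR p-values were those of Ldb3 (2.95 ± 1.41 SE, adjusted p = 0.0989) and Actn3 (3.04 ± 1.49, adjusted p = 0.108). The sign of the median rested on ICB replicate 3, and was -0.41 without it. The module mean, which weighs tumors on the log scale, was 0.48 lower in ICB than in PBS, a difference of -0.48 where the pooled SD was 2.08. Myl2 and Myh7 were too low to be tested in this matrix.

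After 5-FU, 1 of 34 tested members was called, against 23% of all genes in either direction and 9.98% higher. This was Ttn, with 2.27, 2.65, 13.5 and 8.27 CPM in PBS and 130, 1.55, 143, 128 and 159 CPM in 5-FU. Its log2 fold change was 4.01 ± 1.37 (edgeR adjusted p = 0.0398), and it was higher than every PBS tumor in 4 of 5 tumors. The call was lost in 11 of 18 alternatives, with adjusted p from 0.00408 to 0.387. All 34 members had a fold change above 0, with a median of 2.59, and 6 had an unadjusted p under 0.05, as had 7245 of all 17916 genes. The module mean differed by 1.59, less than the pooled SD of 1.72, and by 2.65 without 5-FU replicate 2. DESeq2 called 7 of 35 members, with 4856 of 19475 genes called in either direction. Without 5-FU replicate 2 edgeR called 3 of 34, namely Neb, Ttn and Ryr1, where 10.3% of all genes were called higher.

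After 5-FU+ICB, 5 of 34 tested members were called, all higher, where 40.7% of all genes were called and 21.9% were called higher. The 3 with the largest folds were Actn3 (4.03 ± 1.56 on the log2 scale, edgeR adjusted p = 0.0429), Ttn (3.87 ± 1.36, adjusted p = 0.0283) and Ldb3 (3.73 ± 1.46, adjusted p = 0.0449). The other two were Ryr1 (3.44 ± 1.32, adjusted p = 0.0418) and Pgam2, the muscle phosphoglycerate mutase (3.41 ± 1.28, adjusted p = 0.0385). Each was higher than every PBS tumor in 4 of 5 tumors. None of the 5 was called without 5-FU+ICB replicate 5, where 18.8% of all genes were called higher, and 18 of 34 members were called without replicate 2, where 25.1% of all genes were. An unadjusted p under 0.05 was found for 14 members and for 9579 of all genes tested. The members' median log2 fold change was 3.31, and 1.97 without replicate 5. The module mean differed by 1.47, where the pooled SD was 2.18, and by 0.73 without replicate 5 and 2.76 without replicate 2. DESeq2 called more members than edgeR, 16, and its count over all genes is given in the closing section.

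Of the 5 members called after 5-FU+ICB, Ttn, Ryr1 and Ldb3 are among the 8 long members, Pgam2 is among the 12 short ones and Actn3 is on neither list. PBS replicates 1 and 2 were low in long transcripts throughout. Their Ryr1 levels were 2.12 and 2.21 CPM, against 11.4 and 9.60 CPM in PBS replicates 3 and 4. Over all other genes tested in 5-FU+ICB against PBS, the median log2 fold change was 0.28 for long genes and -0.32 for short ones. Without PBS replicates 1 and 2 no member was called in any of the 5 comparisons with PBS. In that fit, with fewer PBS tumors, the share of all genes called higher also fell, to 0.0898% after 5-FU and 6.94% after 5-FU+ICB. The log2 fold changes after 5-FU+ICB stayed large, at 3.20 for Ttn, 2.74 for Ryr1, 3.39 for Ldb3, 3.81 for Actn3 and 3.63 for Pgam2, with edgeR adjusted p from 0.174 to 0.265. In the full fit the 12 short members had a median log2 fold change of 3.26, beside 3.58 for the long ones. The part of transcript length in the calls was not tested.

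**Figure D4:**
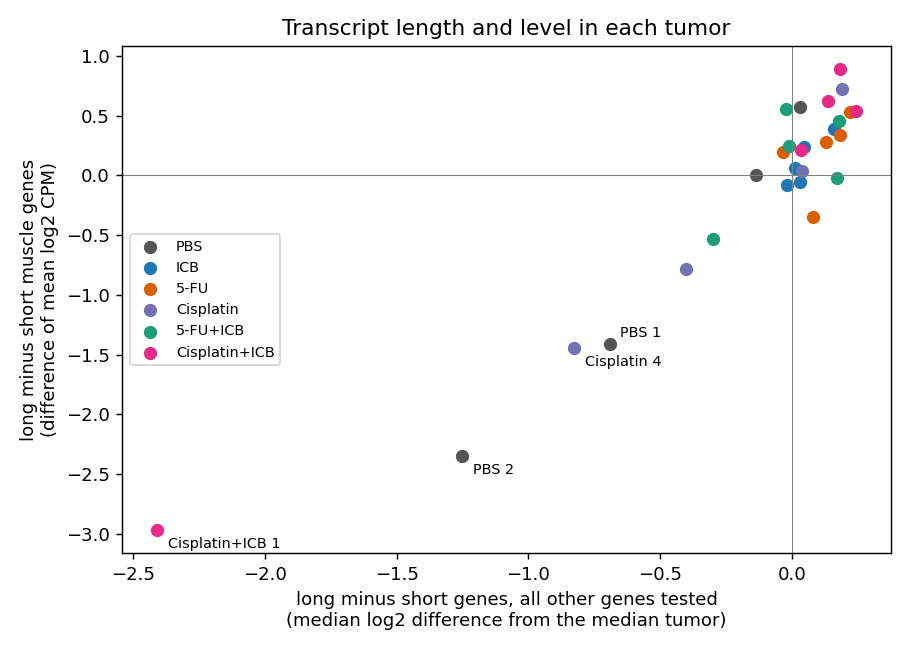
Long minus short transcript level in each tumor, for the muscle genes (vertical axis, difference of mean log2 CPM) and for all other genes tested (horizontal axis, log2 difference relative to the median tumor). Cisplatin+ICB replicate 1 is lowest on both axes, at -2.97 and -2.41, followed by PBS replicate 2.

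Cisplatin gave 0 called members of 35 tested against PBS, where 0% of 17819 genes were called, and no member had an unadjusted p under 0.05. The median log2 fold change was 0.26, and -0.09 without cisplatin replicate 1. Myh7 (1.17 ± 0.62) and Ttn (1.29 ± 1.24) had the smallest p, each with an adjusted p of 1.00 by edgeR. DESeq2 also called 0, as did edgeR without cisplatin replicate 4 (median 0.29) and without replicate 2 (median 0.29).

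Cisplatin+ICB gave 0 called members of 35 against PBS, where 6.1% of genes were called. The median log2 fold change was 1.49, and 2 members had an unadjusted p under 0.05, as had 4204 of 17819 genes. They were Ttn (2.99 ± 1.28, edgeR adjusted p = 0.163) and Ryr1 (2.35 ± 1.05, adjusted p = 0.181). DESeq2 called Ttn alone, and 2156 of 21321 genes. Without cisplatin+ICB replicate 1, the tumor low in long transcripts, edgeR called 3 of 35 members, Myh7, Ttn and Ryr1, and 6277 of 17772 genes. Casq2, the slow and cardiac calcium store, was the single member whose groups did not overlap, all 5 tumors being higher, where 2.57% of genes did so. It had 0.894, 1.28, 1.22 and 1.06 CPM in PBS and 1.96, 1.53, 1.35, 2.80 and 3.31 CPM in cisplatin+ICB, and its adjusted p was 0.478 by edgeR.

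Adding ICB to chemotherapy or chemotherapy to ICB called no member by edgeR or DESeq2. In 5-FU+ICB against ICB 0 of 34 were called (0.229% of all genes), with 0 at an unadjusted p under 0.05 and a median log2 fold change of 1.17. That median was -0.08 without 5-FU+ICB replicate 5 and 3.70 without ICB replicate 3. In 5-FU+ICB against 5-FU 0 of 34 were called (0.0112% of all genes), 0 at an unadjusted p under 0.05, with a median of 0.61 that became -0.56 without 5-FU+ICB replicate 5. The module mean had the other sign there, at -0.11. The smallest edgeR p-values against ICB were those of Tnni1 (1.53 ± 0.76, adjusted p = 0.483) and Tnnc1 (0.91 ± 0.49, adjusted p = 0.526). Against 5-FU they were those of Casq2 (1.04 ± 0.85, adjusted p = 0.523) and Mylpf (1.21 ± 1.27, adjusted p = 0.611).

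In cisplatin+ICB against ICB 0 of 35 were called (0% of all genes), and Tnnc1 alone had an unadjusted p under 0.05 (1.01 ± 0.38, edgeR adjusted p = 0.291), followed by Tnni1 (0.92 ± 0.60, adjusted p = 0.420). The median was -0.48, and 2.03 without ICB replicate 3, while the module mean was 1.46 higher in cisplatin+ICB, a difference of 0.62 without ICB replicate 4 and 2.50 without ICB replicate 3. In cisplatin+ICB against cisplatin 0 of 35 were called (0% of all genes) and 0 had an unadjusted p under 0.05, with a median of 1.19. Ryr1 (1.70 ± 1.01, edgeR adjusted p = 0.498) and Des (1.33 ± 0.93, adjusted p = 0.585) came nearest. The interaction of 5-FU with ICB called 0 of 34 members (0.0893% of all genes) with a median of -1.43, which was 1.20 without ICB replicate 3. Its smallest edgeR p was that of Myh4 (-4.18 ± 2.56, adjusted p = 0.328), and 0 members had an unadjusted p under 0.05. The interaction of cisplatin with ICB called 0 of 35 (0% of all genes) with a median of -0.82, which was 1.67 without ICB replicate 3, and Tnnc1 alone had an unadjusted p under 0.05 (1.41 ± 0.56, edgeR adjusted p = 0.564). Several of these comparisons share control tumors, so their values are not independent.

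Other muscle genes came from 3 lists that hold 68 genes in all and no member. In 5-FU+ICB against PBS, where 21.9% of all genes were called higher, 7 of 24 tested sarcomere and scaffold genes were called higher, among them Cmya5 (3.72 ± 1.49, edgeR adjusted p = 0.0490) and Myom2 (3.66 ± 1.45, adjusted p = 0.0471). Of 21 tested calcium, junction and excitability genes, 6 were called higher, led by the potassium channel gene Kcnj12 (5.30 ± 1.55, adjusted p = 0.0114), and 1, the acetylcholine receptor subunit Chrnb1, lower (-1.42 ± 0.34, adjusted p = 0.00391). Of 20 metabolic genes 3 were called higher, led by the mitochondrial creatine kinase Ckmt2 (5.02 ± 1.86, adjusted p = 0.0359). In 5-FU against PBS, where 9.98% of all genes were called higher, 1 of 24 sarcomere and scaffold genes, 1 of 21 calcium, junction and excitability genes and 0 of 20 metabolic genes were called higher. The calcium list gene was Cacnb1, a calcium channel subunit gene (1.35 ± 0.48, edgeR adjusted p = 0.0477). In ICB against PBS, where 37.8% of all genes were called in either direction, 0 of 24, 1 of 21 and 2 of 20 genes of these lists were called higher and 2 of 21 calcium, junction and excitability genes lower. They were Mylk4 (log2 fold change 4.42), Kcnj12 (4.07) and Fbxo32 (1.40), and, lower, Chrnb1 (-1.19) and Asph (-0.73). No gene of these lists was called in the other comparisons. Without 5-FU+ICB replicate 5, the counts called higher in 5-FU+ICB against PBS fell to 0 of 24, 3 of 21 and 1 of 20, beside 18.8% of all genes. Without replicate 2 they were 13, 15 and 11, beside 25.1% of all genes, and without PBS replicates 1 and 2 no gene of the lists was called higher in the 3 comparisons of this matrix with PBS, where 7.66% (ICB), 0.0898% (5-FU) and 6.94% (5-FU+ICB) of all genes were. Without 5-FU replicate 2, 2 of 24, 3 of 21 and 0 of 20 were called higher in 5-FU against PBS, beside 10.3% of all genes. In ICB against PBS no gene was called higher without ICB replicate 3, where 16.2% of all genes were.

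Across the 28 tumors the members rose and fell together. Ckm correlated with the 35 other members at a median Pearson r of 0.93 (range -0.15 to 0.99), given as a description because the members were chosen as one program. The median was 0.94 for deviations from group means and 0.91 without 5-FU+ICB replicate 2 and ICB replicate 4, the tumors farthest from the median. Tnni2, Pvalb and Tcap were nearest, at 0.99, 0.98 and 0.98. Myh7 (0.22) and Myl2 (-0.15) were farthest, followed by Tnnc1 (0.54) and Tnni1 (0.70). Ckm values showed no separate clusters, with a largest gap of 1.72 in a range of 9.96 log2 CPM. Of 14383 other genes with a mean of at least 1 CPM, those most like Ckm by Spearman rho were Myoz3 (0.98), Cox8b, Rpl3l, Apobec2, Mylk2, Ampd1, Ppp1r3a, Jph1, Fitm1 and Smpx (0.96).

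Markers of other tissues varied beside the muscle genes. Ckm was related to 43 marker genes over 28 tumors. These lists were chosen with earlier results of these data known, so the p-values below, adjusted over the 43, are not independent evidence. The permutations behind them shuffled all 28 tumors without regard to treatment group, and r for deviations from group means was not tested. Adipocyte genes had the highest median r of the lists, 0.87. Adipoq, the adiponectin gene, had r = 0.89 and rho = 0.90, each with a permutation p of 1e-05, the smallest that 100000 permutations can give. Car3, a carbonic anhydrase of fat that slow muscle also uses, had r = 0.91 and rho = 0.95 with the same p. Adipoq kept r = 0.90 for deviations from group means and 0.85 without the 2 farthest tumors. Of 11 adipocyte genes, 10 had an adjusted permutation p under 0.05, and Pnpla2 had r = 0.15. The summed level of the 12 adipocyte markers was 138 to 182 CPM in PBS, 129 to 678 CPM in ICB, 126 to 1010 CPM in 5-FU, 179 to 274 CPM in cisplatin, 138 to 890 CPM in 5-FU+ICB and 118 to 777 CPM in cisplatin+ICB. Their part in the muscle values was not tested.

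Of the 4 mesothelial and tumor markers related to Ckm, Msln went the other way and Krt19 rose with it. For Msln, r was -0.48 (permutation p = 0.00713, adjusted p = 0.0133) and rho was -0.49 (permutation p = 0.00857, adjusted p = 0.0142). The r of Msln was -0.51 without the 2 farthest tumors and -0.60 for deviations from group means. Without 5-FU+ICB replicate 5, left out after its Msln level was seen, r was -0.37 and rho -0.43 over 27 tumors, given without a test, while Adipoq kept r = 0.88. Krt19 had r = 0.47 (permutation p = 0.0110, adjusted p = 0.0190) and rho = 0.41 (permutation p = 0.0337, adjusted p = 0.0467). Krt19 was not recomputed without 5-FU+ICB replicate 5, its highest tumor. Krt7 (r = 0.11) and Krt8 (r = 0.04) had adjusted permutation p-values of 0.605 and 0.845. Smooth muscle genes had a median r of 0.47 (5 of 7 with an adjusted permutation p under 0.05) and keratinocyte genes of 0.44 (4 of 6). Schwann cell and nerve genes had a median of 0.47 (4 of 6). The defining cardiac genes Myh6, Myl7 and Nppa stayed at or under 0.124, 0.0336 and 0.108 CPM in all tumors. The 5 other cardiac markers were higher, reaching 14.0 CPM for Gja5, 7.63 CPM for Tnnt2, 7.44 CPM for Nppb, 3.88 CPM for Tnni3 and 0.618 CPM for Ryr2. Tnnt2, a troponin that developing skeletal muscle also uses, had r = 0.74 with Ckm (permutation p = 2e-05, adjusted p = 6.14e-05). In 5-FU+ICB against PBS edgeR called 3 of 5 tested cardiac markers higher, namely Gja5, Tnni3 and Ryr2, where 21.9% of all genes were called higher. In the same comparison 6 of 8 smooth muscle, 4 of 8 Schwann cell and nerve, 4 of 11 adipocyte and 0 of 8 keratinocyte markers were called higher, as were 1 of 9 myogenic and 3 of 6 mesothelial and tumor markers and Ptprc. Msln was called lower. In ICB against PBS 37.8% of all genes were called in either direction. There, 2 of 8 smooth muscle, 3 of 8 nerve, 2 of 11 adipocyte and 2 of 8 keratinocyte markers were called higher. So were 2 of 5 cardiac and 1 of 6 mesothelial and tumor markers and Ptprc. In 5-FU against PBS, 9.98% of all genes were called higher. There, 1 of 8 smooth muscle, 2 of 8 nerve and 1 of 6 mesothelial and tumor markers were called higher, and none of the adipocyte, keratinocyte, cardiac or myogenic ones. Their part in the member values was not tested. Of 12 myogenic regulators and developmental myosins, 10 stayed at or under 7.31 CPM, the level of Myh8, among them Myog (to 5.89 CPM), Myod1 (to 1.68 CPM) and Pax7 (to 0.467 CPM). Myl4 reached 21.4 CPM and Mef2c, which other cells also use, 117 CPM. All 4 genes of this list that were related to Ckm rose with it, with a median r of 0.81 and an adjusted permutation p under 0.05 each, and Myog had r = 0.84. The leukocyte gene Ptprc had r = 0.33 (permutation p = 0.0871, adjusted p = 0.107), and r = 0.57 for deviations from group means.

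**Figure D5:**
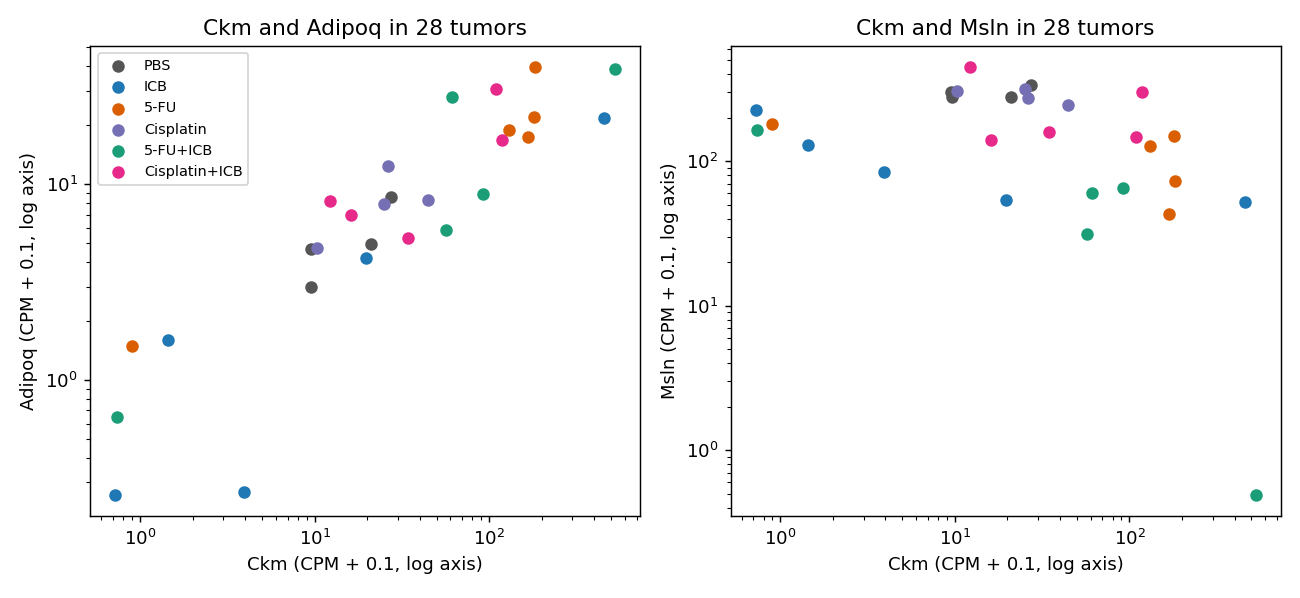
Ckm against the adipocyte gene Adipoq (left) and the mesothelial gene Msln (right) in 28 tumors, in CPM + 0.1 on log axes, colored by treatment group. Adipoq rises with Ckm (r = 0.89 on log2 CPM), and Msln falls (r = -0.48), with 5-FU+ICB replicate 5 lowest at 0.390 CPM.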

How the data were processed

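Bulk RNA was sequenced from 28 whole AB1-HA tumors. The authors estimated transcript abundance with kallisto 0.46.0 (bcl2fastq 2.20.0.422 is also named in the submitters' processing notes) and deposited 2 matrices of estimated counts per gene, built on GRCm38 (mm10). The PBS and ICB tumors appear in both with 0 differing values. The estimated counts were rounded to whole numbers for edgeR 4.0.16 (R 4.3.3), with filterByExpr, TMM scaling and the quasi-likelihood test on the 4 groups of each matrix. Calls needed a Benjamini-Hochberg adjusted p below 0.05 together with a log2 change of more than 0.5 in size, over all genes tested. Levels are CPM, each count scaled to the library total, from the unrounded deposited counts, and log2 CPM used TMM factors over all 28 tumors with a prior count of 2. DESeq2 1.42.0 was an alternative. No column was left out (0 unused).

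Depth was 2.35e+07 to 3.40e+07 counts per tumor, so 3 counts correspond to 0.0884 to 0.127 CPM. Wilson intervals and this floor cover counting error only. Groups came from the sample labels, which give no sequencing batch. Each sample is labelled as a tumor of its own; where nothing says more, p-values measure the spread between these samples. On simulated counts for 5-FU+ICB against PBS (17916 genes, 200 changed), the test recovered 82% of genes changed by 2 on the log2 scale and 97% of those changed by 4. The changed genes were drawn at random from all but low genes, each with its own spread. Members spread more (median SD 2.38 log2 CPM against 0.61 over kept genes). The recovery of members was not measured, and these shares do not apply to them.

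The members, their role and fiber type lists and the marker lists were chosen with earlier results of these data known. All 36 members could be named. Values in every tumor were given for the most abundant member of each of the 5 role lists and for the slow and fast myosin with the highest mean. For a comparison, at most 3 called members per direction were named, or the 2 with the smallest p if none was called, and other called members were added where the whole count was 5 or fewer. Other muscle genes were named when called, at most 3 per direction. An item of these lists is not reported here. The 10 other genes with the highest Spearman correlation with Ckm were named. Alternatives are given in the closing section.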

Additional observations from a re-analysis of the deposited data

Results flagged for a closer look

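Of 60 groups of values looked at (6 groups for each of 10 measures), 19 held a tumor whose gap to the nearest other was too large a part of the group's range by Dixon's test at 95%. Chance flags about 1 in 20 groups of normally distributed values. Shares and CPM were looked at unlogged and are skewed, so chance flags can be more frequent among them. The measures are correlated, so these are a few tumors seen repeatedly.

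ICB replicate 3 was far above the other ICB tumors in its muscle share (0.594%, next 0.0695%), Acta1 (1144 CPM, next 134), Myh4 (785 CPM, next 32.2), Atp2a1 (512 CPM, next 36.6) and Ckm (457 CPM, next 19.6). 5-FU+ICB replicate 5 was highest of its group in the same measures, with a share of 0.821% (next 0.218%), Acta1 at 1719 CPM, Myh4 at 510 CPM, Atp2a1 at 762 CPM and Ckm at 527 CPM. Cisplatin replicate 1 was highest of its group in share (0.0912%), Acta1 (166 CPM) and Atp2a1 (64.8 CPM). PBS replicate 4 stood apart in Atp2a1 (22.7 CPM).

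5-FU replicate 2 was far below the other 5-FU tumors, with a module mean of -0.52 log2 CPM (next 4.42), a fast minus slow difference of 0.34 (next 4.89) and Ckm at 0.800 CPM (next 130). Cisplatin+ICB replicate 1 stood apart in long minus short members, at -2.97 (next 0.21). Myh7 was 0.575 CPM in 5-FU+ICB replicate 4, a level of few counts.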

How the results depend on the processing

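The number of called members moved with the test. In 5-FU against PBS (1 called by edgeR) it was 7 with DESeq2 (4856 of 19475 genes called), 15 with the 2 groups alone (3894 of 16667), 0 with all 6 groups joined (825 of 18521), 0 with no filter on low counts (2469 of 35539) and 0 to 3 when a replicate was left out. In 5-FU+ICB against PBS (5 called) it was 16 with DESeq2 (7923 of 22865 genes), 11 with the 2 groups alone (5024 of 16658), 8 with all 6 groups joined (5812 of 18521), 1 with no filter (6384 of 35539) and 0 to 18 when a replicate was left out. Without PBS replicates 1 and 2, chosen after seeing the data, both were 0. In ICB against PBS (0 called) DESeq2 called 2, and in cisplatin+ICB against PBS (0 called) it called 1, with 0 to 3 when a replicate was left out. The cause was not tested. The other comparisons and both interactions called 0 members in every alternative run. Module mean differences moved by less than the pooled SD, which is wide here (0.73 to 2.76 for 5-FU+ICB against PBS and 0.62 to 2.50 for cisplatin+ICB against ICB when a replicate was left out). The fiber balance, the share without Des and the relations with Ckm moved by less than 1 SD or 1.5 times. The module mean difference of 5-FU+ICB against 5-FU changed sign in 5 of 10 leave-one-out runs and that of ICB against PBS in 1 of 9, and also with the long members alone (0.11; -0.80 with the short ones alone).

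Replicate numbers did not pair the tumors: no comparison had every same-numbered pair correlated over 0.1 in deviations from group means. With the replicate block edgeR called 0 members in 5-FU against PBS and 0 in 5-FU+ICB against PBS, and changed no other count. The share of all genes called in that fit is not given here, so these counts cannot be read against it. Depth limits Myl2, and Myh7 in part.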

Other observations

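ICB replicate 2 carried the most keratinocyte RNA, with 589 CPM summed over 12 markers and 185 CPM of Krt5, a basal keratinocyte keratin. The other tumors had at most 31.0 CPM summed. Its muscle share, 0.0695%, was the second highest of the ICB group.

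The genes whose levels ran most nearly opposite to Ckm, among 14383 with a mean of at least 1 CPM, were Hdac9 (rho = -0.82), Azi2 (-0.78), Ppme1 (-0.76), Tgif1 (-0.75) and Eaf1 (-0.75) over the 28 tumors, chosen after their values were seen. Hdac9 encodes a deacetylase that represses MEF2 factors.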
